A study of Mus musculus with 6 samples.

Results

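The genes described here are 10 genes of bile acid production and its feedback control in mouse liver: Cyp7a1, Cyp8b1, Cyp27a1, Cyp7b1, Akr1d1, Amacr, Slc27a5, Baat, Nr1h4 and Nr0b2. They were taken as a named list and matched by symbol to the gene IDs of the deposited table, which holds 48432 genes, and all 10 were among the 16533 genes that passed the filter on low counts. The study compared 3 libraries from each of 2 kinds of liver: livers that lack Klf15 in the liver only (Li-KO) and livers of animals that carry only the Albumin-Cre transgene (Ctl), all from mice aged 10 weeks. Klf15 encodes a zinc finger transcription factor, and the albumin promoter drives Cre recombinase in hepatocytes. Whether other liver cells kept the gene was not tested. The labels call the control Albumin-Cre and do not say whether the Li-KO animals carry the same transgene, which exon was deleted, the sex of the mice, the hour of collection or the feeding state. Nor do they give 1 animal to each library, and the p-values below then reflect only the variation among 6 libraries, which may be technical.

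Bile acids are made from cholesterol in hepatocytes, and they solubilise dietary fat in the gut. The classic route starts with a hydroxylation of the sterol ring by CYP7A1, the alternative route starts on the side chain with CYP27A1, and both then remodel the ring, shorten the side chain in peroxisomes and join the acid to taurine or glycine. Bile acids bind the nuclear receptor FXR, the product of Nr1h4, which raises SHP, the product of Nr0b2, and SHP in turn lowers transcription of Cyp7a1 and Cyp8b1. In the intestine FXR raises the hormone FGF15, which reaches the liver and lowers Cyp7a1 through the receptor FGFR4 and its partner beta-Klotho.

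Amacr, whose enzyme flips a carbon in the side chain of bile acid precursors, was the 1 gene of the 10 that passed the test, and it was 1.58-fold higher in Li-KO liver. Its call ended in 4 of the 6 fits that each left out 1 library, with adjusted p of 0.0502 to 0.0685 there. The other 9 did not pass, in either direction. The 2 genes that missed by least, at unadjusted p of 0.0509 and 0.0530, were Nr0b2, higher on average in Li-KO, and Cyp7b1, lower on average in Li-KO. Cyp7a1, the rate-limiting enzyme, had overlapping values in the 2 groups, and so did Nr1h4, the receptor.

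The test was the quasi-likelihood test of edgeR across all 16533 genes, two-sided, with p-values adjusted by the Benjamini-Hochberg method, and a gene was called at an adjusted p under 0.05. Of the 10 genes, 1 was called higher, where 6.11% of all genes tested were called higher, and 0 were called lower, where 5.90% of all genes were. None of the 3 genes with a negative fold change had an unadjusted p under 0.05, and DESeq2 and limma-voom also called 1 higher and 0 lower. The 2 groups of libraries did not overlap in 1 of the 10 genes, against 35.2% of all genes tested. The median log2 fold change, Li-KO minus Ctl, was 0.22 over the 10 genes and -0.01 over all genes tested.

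Levels are given in CPM, the fragments of a gene relative to the total of its library after TMM scaling, which adjusts that total for differences in composition, except where levels of different genes are compared. Library totals were 30132496 to 42782324 fragments in Li-KO and 35454667 to 42433779 in Ctl, and the lowest count of any of the 10 genes in any library was 439 fragments. Klf15 was at 54.3, 41.6 and 51.8 CPM in Li-KO replicates 0, 1 and 2, against 345, 174 and 196 CPM in Ctl replicates 0, 1 and 2, and every Li-KO library was below every Ctl library (log2 fold change -2.28 ± 0.26, SE, edgeR adjusted p = 0.00275). Xist, which is expressed from the inactive X chromosome of females, was at 0 to 0.146 CPM in Li-KO and 0.162 to 0.431 CPM in Ctl. The Y-linked gene Ddx3y was at 121 to 171 CPM in Li-KO and 162 to 198 CPM in Ctl, so Y-linked expression was present in all 6 libraries.

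**Figure D1:**
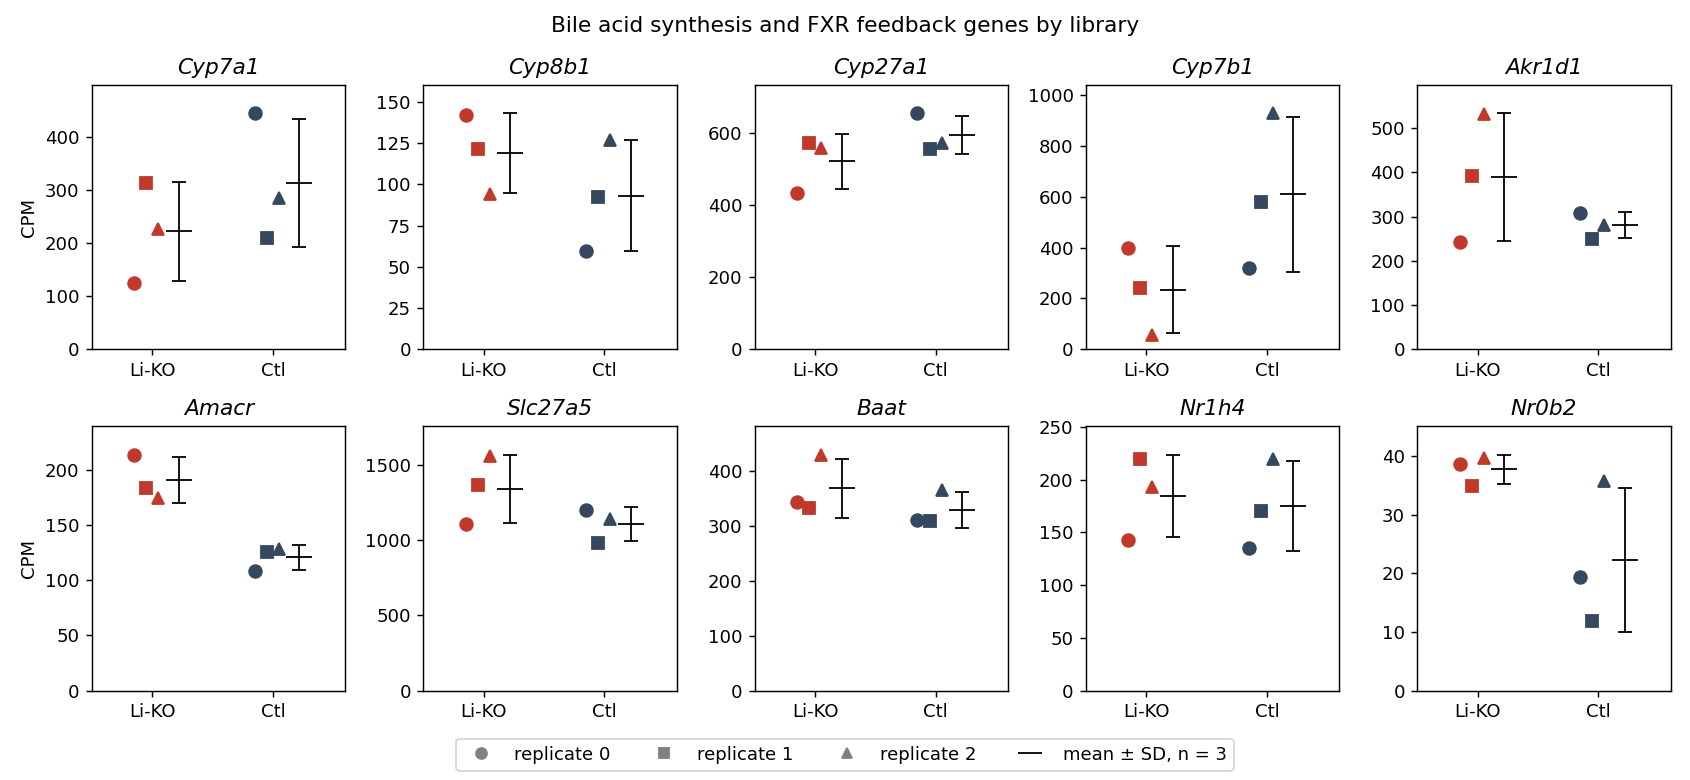
Level of each of the 10 genes in CPM (vertical axis from 0) in the 3 Li-KO libraries (red, left) and the 3 Ctl libraries (dark, right), with marker shape for the replicate number and the black bar and whiskers for mean ± SD (n = 3). Amacr is the 1 panel in which the groups are apart, and Cyp7b1 spreads from 58.1 to 400 CPM within Li-KO.

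Cyp7a1 (ENSMUSG00000028240.2, chromosome 4, 6265612 to 6275633, minus strand, mm10) encodes cholesterol hydroxylase, the rate-limiting enzyme of the classic route. Its level was 126, 313 and 227 CPM in Li-KO replicates 0, 1 and 2, against 444, 210 and 285 CPM in Ctl replicates 0, 1 and 2. The lowest value was a Li-KO library and the highest a Ctl library, but 2 of the Li-KO libraries lay inside the Ctl range. The mean was 222 ± 93.9 CPM in Li-KO and 313 ± 120 CPM in Ctl (SD, n = 3 each). The log2 fold change of -0.50 had a 95% interval of -1.30 to 0.31, with an edgeR adjusted p of 0.391. Leaving out 1 library moved it to between -0.83 and -0.16, with no call in any of the 6 fits.

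Cyp8b1 (chromosome 9, 121914356 to 121916305, minus strand, a gene of 1 exon) encodes the sterol hydroxylase that directs precursors to cholic acid. In Li-KO replicates 0, 1 and 2 it was at 142, 121 and 94.0 CPM, against 59.9, 92.6 and 127 CPM in Ctl replicates 0, 1 and 2. Its 3 Li-KO values all exceeded 2 of the 3 Ctl values, and Ctl replicate 2 lay within the Li-KO range. The log2 fold change was 0.35 (95% interval -0.24 to 0.95, edgeR adjusted p = 0.409).

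Cyp27a1 (chromosome 1, 74713574 to 74737892, plus strand) encodes the mitochondrial hydroxylase of the sterol side chain, which opens the alternative route and also acts late in the classic one. It was among the steadiest of the 10 genes, at 435, 572 and 557 CPM in Li-KO, against 655, 555 and 572 CPM in Ctl. Li-KO replicates 1 and 2 fell inside the Ctl range and Li-KO replicate 0 below it. The 95% interval of its log2 fold change of -0.19 ran from -0.54 to 0.16 (edgeR adjusted p = 0.453).

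Cyp7b1 (chromosome 3, 18071950 to 18243338, minus strand) encodes the oxysterol hydroxylase of the alternative route, and mouse liver is known to express it more in males than in females. Its level was 400, 243 and 58.1 CPM in Li-KO replicates 0, 1 and 2, and 320, 579 and 928 CPM in Ctl replicates 0, 1 and 2. Li-KO replicates 1 and 2 were below all Ctl libraries, whereas Li-KO replicate 0 lay between Ctl replicates 0 and 1. No other gene of the 10 varied as much within Li-KO, with a coefficient of variation of 73.2% in Li-KO and 50.1% in Ctl. The log2 fold change was -1.38 ± 0.62 (SE) with a 95% interval of -2.79 to 0.02 and an edgeR adjusted p of 0.176. It stayed negative in the 6 fits that each left out 1 library, from -1.99 without Li-KO replicate 0 to -0.93 without Li-KO replicate 2, and none of these called it.

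Akr1d1 (chromosome 6, 37530173 to 37568815, plus strand) encodes the reductase that gives the steroid ring of bile acids its bent form. The Li-KO libraries held 243, 391 and 533 CPM in replicates 0, 1 and 2, against 309, 250 and 282 CPM in the Ctl libraries. Li-KO replicate 0 was the lowest of all 6 libraries and Li-KO replicates 1 and 2 were the highest. With all libraries the log2 fold change was 0.47 (95% interval -0.11 to 1.05, edgeR adjusted p = 0.256). Without Li-KO replicate 0 it was 0.74 and passed the test (edgeR adjusted p = 0.0400), so this call rests on which libraries are kept.

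Promoter sequences, 250 bases before to 50 bases after the start of the transcript, were present in the RefSeq table (GRCm38.p6) for 5 of the 10 genes, Cyp8b1, Cyp27a1, Akr1d1, Nr1h4 and Nr0b2. Those of Nr0b2, the target through which FXR acts, of Cyp8b1, which SHP lowers, and of Akr1d1, the only one of the 5 that holds both AGGTCA and CACCC, are shown 5′ to 3′ along the strand of the gene.
Nr0b2, chr4:133553126-133553425, plus strand: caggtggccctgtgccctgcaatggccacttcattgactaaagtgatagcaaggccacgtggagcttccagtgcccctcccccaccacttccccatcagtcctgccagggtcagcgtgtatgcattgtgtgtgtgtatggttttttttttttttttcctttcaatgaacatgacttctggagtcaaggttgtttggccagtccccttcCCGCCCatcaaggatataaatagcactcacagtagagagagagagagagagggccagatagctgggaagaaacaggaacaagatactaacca
Cyp8b1, chr9:121916256-121916555, minus strand: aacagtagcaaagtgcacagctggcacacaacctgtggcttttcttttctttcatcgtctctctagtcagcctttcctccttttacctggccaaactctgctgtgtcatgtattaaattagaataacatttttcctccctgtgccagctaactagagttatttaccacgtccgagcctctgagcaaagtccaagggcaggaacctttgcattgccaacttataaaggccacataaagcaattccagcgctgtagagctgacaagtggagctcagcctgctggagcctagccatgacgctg
Akr1d1, chr6:37529923-37530222, plus strand: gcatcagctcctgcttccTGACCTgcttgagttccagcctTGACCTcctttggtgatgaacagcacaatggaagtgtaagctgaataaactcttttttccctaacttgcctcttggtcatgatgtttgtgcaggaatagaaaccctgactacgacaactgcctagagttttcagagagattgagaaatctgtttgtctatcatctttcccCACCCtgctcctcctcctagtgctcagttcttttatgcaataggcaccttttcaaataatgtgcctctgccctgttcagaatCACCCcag

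Capitals mark every match, on either strand, to the 5 short motifs searched. These were AGGTCA, the single recognition unit of many nuclear receptors, CAAGGTCA, the longer form read by receptors of the NR5A2 type, which contains that unit, GTCANTGAC, the core of the inverted repeat bound by FXR, CACCC, a core of Kruppel-like factor sites, and CCGCCC, a GC box. AGGTCA was in 2 of the 5 promoters, 2 copies in Akr1d1 and 1 in Nr1h4, and in 16.3% of the 32851 promoters of the table. CACCC was in 1 of the 5, with 2 copies in Akr1d1, and in 57.5% of all promoters, while CCGCCC was in 2 of the 5, once in Nr0b2 and once in Cyp27a1, and in 35.7% of all. CAAGGTCA and GTCANTGAC were in 0 of the 5, and in 1.56% and 0.387% of all promoters. The start site that the table uses for Nr1h4 lies 26927 bases inside the gene as GENCODE draws it. A match of letters is no evidence of binding. Its absence concerns only these exact letters in these 300 bases, since variants of a site that differ in a base were not searched.

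Amacr (ENSMUSG00000022244.6, placed by a later version of the same gene on chromosome 15, 10981756 to 10996626, plus strand) encodes the racemase that turns the side chain of bile acid precursors to the form that peroxisomal oxidation accepts. It was at 214, 183 and 174 CPM in Li-KO replicates 0, 1 and 2, against 108, 126 and 128 CPM in Ctl replicates 0, 1 and 2. All 3 Li-KO libraries were above all 3 Ctl libraries, and the gap between the groups was wider than the spread inside either. The mean was 190 ± 20.7 CPM in Li-KO and 121 ± 11.1 CPM in Ctl (SD, n = 3 each), a log2 fold change of 0.66 ± 0.13 (SE, 95% interval 0.36 to 0.95) with an edgeR adjusted p of 0.0182. In the 6 fits that left out 1 library the log2 fold change kept to 0.58 to 0.71, but the call ended in 4 of them. Leaving out Li-KO replicate 1 gave an adjusted p of 0.0670, and leaving out Ctl replicate 0, 1 or 2 gave 0.0502, 0.0685 or 0.0555.

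Slc27a5 (chromosome 7, 12988346 to 12998192, minus strand) encodes the ligase that attaches coenzyme A to bile acids before conjugation, and it was the most abundant of the 10 genes. Its level was 1104, 1363 and 1555 CPM in Li-KO, against 1197, 983 and 1139 CPM in Ctl. Li-KO replicates 1 and 2 were above all Ctl libraries, and Li-KO replicate 0 was inside the Ctl range. The log2 fold change was 0.28 (95% interval -0.11 to 0.67, edgeR adjusted p = 0.322).

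Baat (chromosome 4, 49489422 to 49506557, minus strand) encodes the transferase that joins bile acids to taurine or glycine. The 3 Li-KO libraries were at 343, 332 and 430 CPM, against 311, 310 and 367 CPM in the 3 Ctl libraries. Of the Li-KO values 2 lay inside the Ctl range, and the 95% interval of the log2 fold change of 0.16 ran from -0.17 to 0.50 (edgeR adjusted p = 0.501).

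Nr1h4 (chromosome 10, 89454234 to 89533585, minus strand), the gene of FXR, was at 142, 219 and 193 CPM in Li-KO, against 135, 171 and 219 CPM in Ctl. The ranges of the groups nearly coincided. Its log2 fold change was 0.08 (95% interval -0.40 to 0.56, edgeR adjusted p = 0.847) and changed sign when 1 library was left out, to -0.06 for Li-KO replicate 1 and -0.08 for Ctl replicate 0.

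Nr0b2 (chromosome 4, 133553376 to 133556536, plus strand), the gene of SHP, was the least abundant of the 10. It was at 38.6, 34.9 and 39.7 CPM in Li-KO replicates 0, 1 and 2, against 19.3, 11.8 and 35.7 CPM in Ctl replicates 0, 1 and 2. The Li-KO values were close together, with a coefficient of variation of 6.59%, against 54.8% in Ctl, and a single library, Ctl replicate 2, made the groups overlap. The log2 fold change was 0.76 ± 0.34 (SE) with a 95% interval of -0.0039 to 1.53 and an edgeR adjusted p of 0.172. Without Ctl replicate 2, the library that made the groups overlap, it was 1.28 and passed the test (edgeR adjusted p = 0.0343). The other fits without 1 library gave 0.48 to 0.81 with adjusted p of 0.242 to 0.328, so this call rests on which libraries are kept. No difference in spread between the groups was tested.

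**Figure D2:**
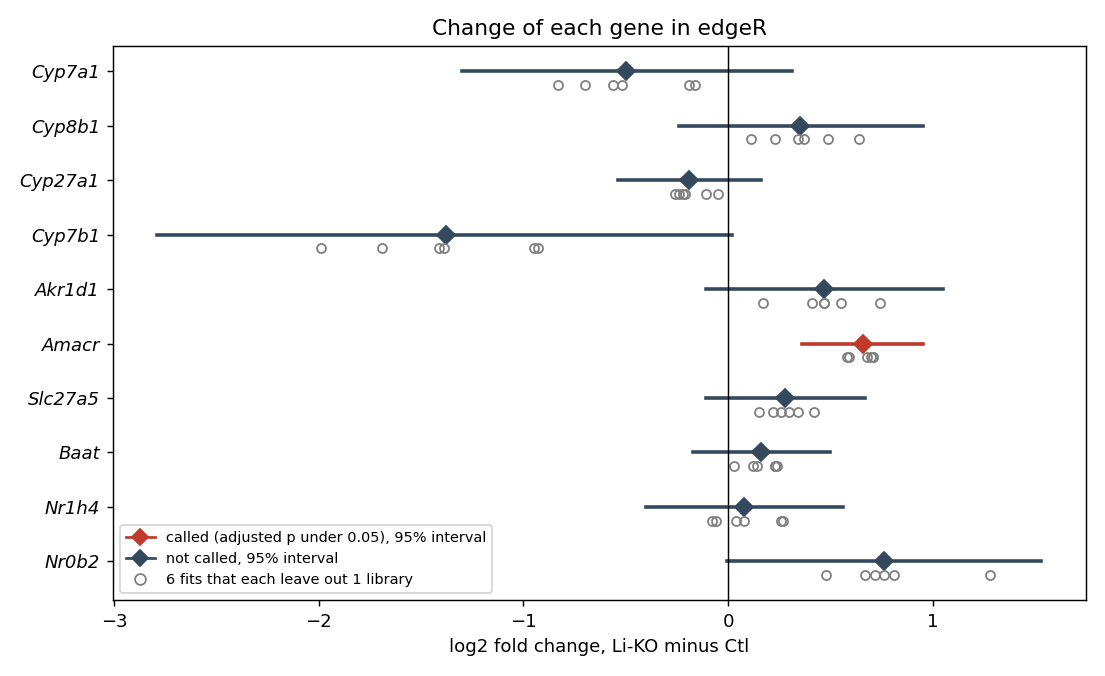
Log2 fold change of each gene, Li-KO minus Ctl (horizontal axis), from edgeR: diamonds with 95% intervals, red where the gene was called, and open circles for the 6 fits that each left out 1 library. The interval of Amacr runs from 0.36 to 0.95, that of Cyp7b1 is the widest, and only the circles of Nr1h4 lie on both sides of 0.

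For levels per transcript length the deposited FPKM values were used, so that genes can be set beside each other. In Li-KO liver the order of mean FPKM was Slc27a5 (453), Cyp27a1 (207), Baat (151), Akr1d1 (106), Cyp7b1 (84.5), Nr1h4 (71.2), Amacr (57.6), Cyp8b1 (47.9), Cyp7a1 (39.4) and Nr0b2 (30.1). In Ctl liver it was Slc27a5 (393), Cyp27a1 (237), Cyp7b1 (225), Baat (135), Akr1d1 (79.4), Nr1h4 (67.7), Cyp7a1 (56.3), Cyp8b1 (39.4), Amacr (37.9) and Nr0b2 (18.8). In Li-KO only Slc27a5 was separated from its neighbour in the order, with every library above every library of the next gene. In Ctl the separated neighbours were Slc27a5 and Cyp27a1, Baat and Akr1d1, and Amacr and Nr0b2. Cyp7b1 thus stood below Baat and Akr1d1 in Li-KO and above them in Ctl, though its ranges, 19.3 to 145 FPKM in Li-KO and 115 to 344 FPKM in Ctl, overlapped.

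**Figure D3:**
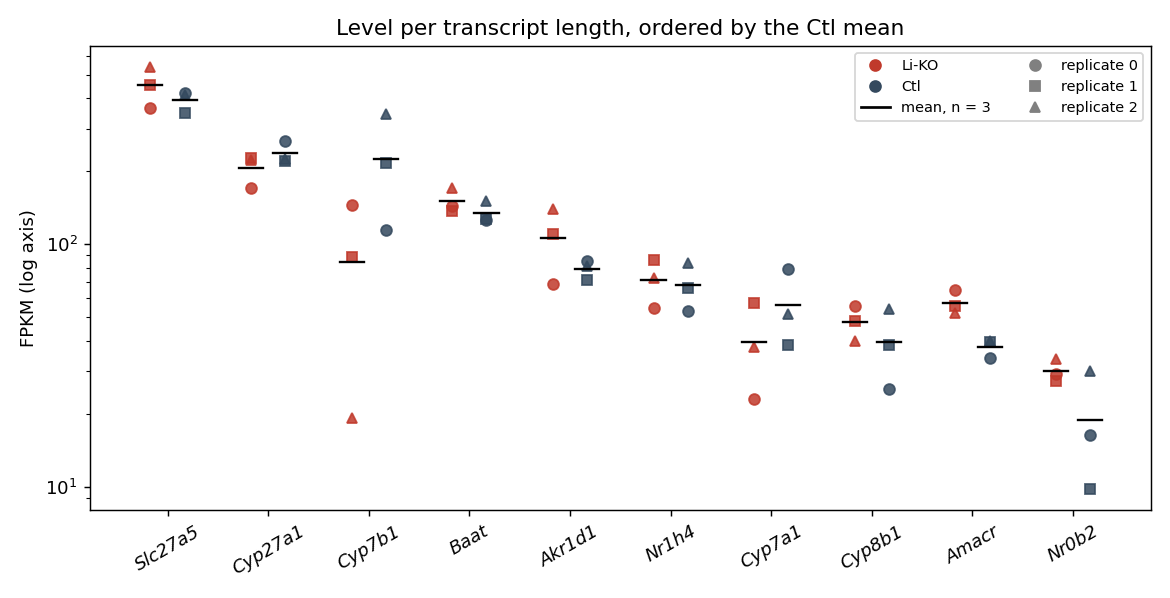
FPKM of the 10 genes in every library on a log axis, Li-KO (red) left of Ctl (dark) for each gene, ordered by the Ctl mean, with black bars for the mean of 3 libraries. Slc27a5 is the highest in both groups, and Cyp7b1 in Li-KO runs from 19.3 to 145 FPKM.

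Within a library, 3 pairs of genes were set against each other as differences of log2(FPKM + 0.1), as a description with no test. Cyp8b1 minus Cyp7b1 was -1.39, -0.87 and 1.04 in Li-KO replicates 0, 1 and 2, against -2.17, -2.48 and -2.66 in Ctl replicates 0, 1 and 2. All 3 Li-KO libraries were therefore above all 3 Ctl libraries in this difference, and the group means were 2.03 apart. The SD was 1.28 in Li-KO and 0.24 in Ctl, with Li-KO replicate 2 furthest from Ctl. How often other pairs of genes separate in this way was not computed, and for single genes the share was 35.2%. Of this pair, Cyp7b1 had the larger log2 fold change in edgeR (-1.38, against 0.35 for Cyp8b1), and neither gene was called. Cyp7a1 minus Cyp7b1 was -2.65, -0.62 and 0.96 in Li-KO, against -0.54, -2.49 and -2.74 in Ctl, and these ranges overlapped. In Li-KO replicate 2 Cyp7a1 and Cyp8b1 both stood above Cyp7b1, with 1.96 times its FPKM for Cyp7a1 and 2.07 times for Cyp8b1. Nr0b2 minus Nr1h4 was -0.90, -1.65 and -1.10 in Li-KO, against -1.68, -2.74 and -1.48 in Ctl, with overlapping ranges.

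**Figure D4:**
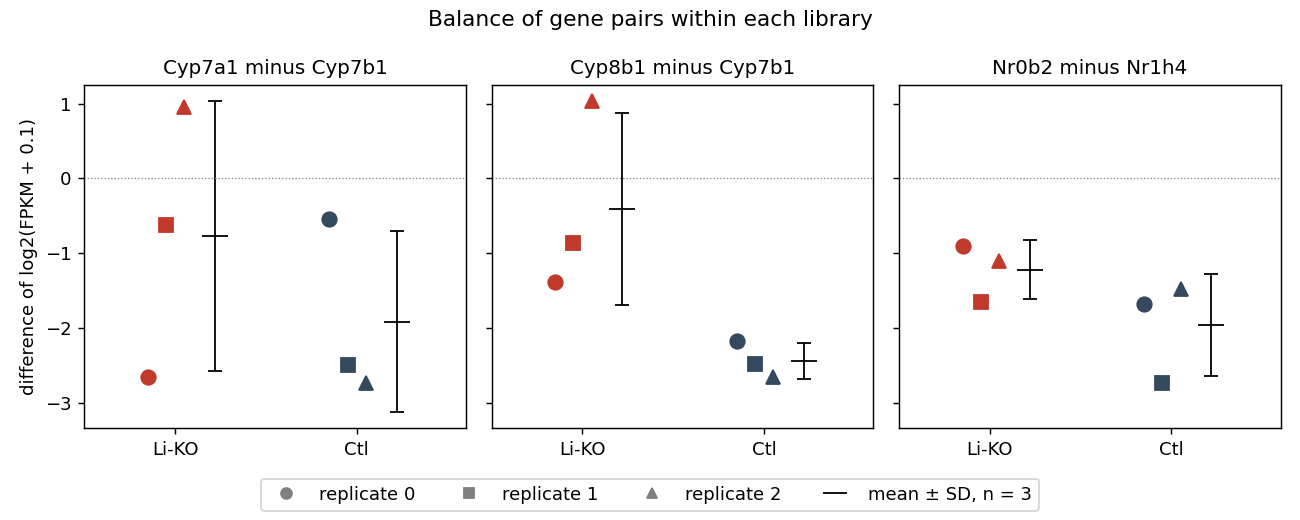
Difference of log2(FPKM + 0.1) between the genes of a pair in each library, Li-KO (red) left of Ctl (dark), marker shape for the replicate number, with mean ± SD (n = 3). The groups are apart for Cyp8b1 minus Cyp7b1, where Ctl lies between -2.66 and -2.17, and overlap for the other pairs.

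Between libraries of the same group, some of the 10 genes moved together. As a description over 6 libraries and 45 pairs of genes, the deviations of log2 CPM from the group means gave Pearson r = 0.96 for Akr1d1 and Slc27a5, 0.95 for Cyp7a1 and Cyp27a1 and 0.88 for Cyp8b1 and Amacr. Opposite deviations were seen for Cyp27a1 and Amacr (r = -0.93) and for Cyp7b1 and Akr1d1 (r = -0.85). The receptor and its target, Nr1h4 and Nr0b2, gave r = 0.37, and Nr0b2 and Cyp7a1 gave r = 0.16. The values share libraries and depth, and the 3 deviations of a group sum to 0, so few of the 6 are free.

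Among 11936 other genes with a mean of at least 1 CPM, those most like Cyp7a1 across the 6 libraries were Bri3 (Pearson r = 0.991), Bmi1 (0.986), Hspb8 (0.980), Napb (0.979) and Tmem14a (0.974). Like Cyp7a1 they were lowest in Li-KO replicate 0 and highest in Ctl replicate 0, over a narrower range, with Bmi1 at 31.2 CPM in that Li-KO library and 37.3 CPM in that Ctl library. Among those most like Nr0b2 were Atoh8 (0.992), Sdf4 (0.991), Zfp786 (0.987) and Mcoln1 (0.975), all lowest in Ctl replicate 1. An r of at least 0.95 was reached by 16 genes for Cyp7a1 and 30 for Nr0b2, and none of the 9 genes named here was called by edgeR (adjusted p of 0.175 to 0.758). With 6 libraries and 11936 genes searched, some unrelated genes reach so high an r. The likeness was not tested and shows no link between the genes.

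Of 13 other measured enzymes of bile acid synthesis and conjugation, 1 rose and 1 fell, 15.4% against 12.0% of all genes called in either direction. Their median log2 fold change was 0.07, and its sign turned under limma-voom (-0.13), limma on log2(FPKM + 0.1) (-0.14) and the replicate block (-0.11). Cyp2c70, which makes muricholic acids in mice, was at 343, 300 and 439 CPM in Li-KO, against 812, 723 and 831 CPM in Ctl. It fell in all 3 Li-KO libraries relative to all Ctl libraries (log2 fold change -1.13 ± 0.17, edgeR adjusted p = 0.00761), and the call held without any 1 library. Acot8, a peroxisomal thioesterase that releases bile acids from coenzyme A, rose to 15.6, 16.8 and 16.4 CPM in Li-KO, against 9.25, 10.7 and 11.6 CPM in Ctl (edgeR adjusted p = 0.0313), and lost its call in 4 of the 6 fits without a library (adjusted p up to 0.106). The ring dehydrogenase Hsd3b7, the side chain oxidase Acox2 and the thiolase Scp2 were not called, with log2 fold changes of 0.39, -0.37 and -0.12 and adjusted p of 0.167, 0.231 and 0.684.

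The feedback arm beyond Nr1h4 and Nr0b2 held 18 measured regulators, of which 2 rose and 1 fell. That is 16.7% called, against 12.0% of all genes tested, with a median log2 fold change of 0.11. The oxysterol receptor gene Nr1h3 rose to 140 ± 15.01 CPM in Li-KO, against 100 ± 3.02 CPM in Ctl, and the xenobiotic and bile acid receptor gene Nr1i2 to 184 ± 20.6 CPM, against 121 ± 22.2 CPM. Prox1, a corepressor of nuclear receptors in hepatocytes, fell to 282 ± 71.8 CPM in Li-KO, against 503 ± 110 CPM in Ctl. Their edgeR adjusted p were 0.0338, 0.0426 and 0.0426, and each kept its call in 1 of the 6 leave-one-out fits. The highest adjusted p there was 0.114 for Nr1h3, 0.141 for Nr1i2 and 0.152 for Prox1. Neither Nr1i2 nor Prox1 was called by limma on log2(FPKM + 0.1), with adjusted p of 0.0546 and 0.0588.

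The hormone route into the liver was measured through its receptor. Fgfr4 was at 52.5, 52.0 and 39.3 CPM in Li-KO, against 48.2, 36.3 and 30.7 CPM in Ctl, with overlapping groups (edgeR adjusted p = 0.309). Klb, the gene of beta-Klotho, was at 58.5, 68.4 and 87.9 CPM in Li-KO, against 55.8, 43.0 and 53.0 CPM in Ctl. Its groups did not overlap, but it did not pass (log2 fold change 0.50, edgeR adjusted p = 0.0954). Fgf15, an ileal gene, had 0 fragments in all 6 libraries, which allows at most 0.0996 CPM in any of them, counting error only. Nr5a2, Hnf4a, Rxra and Mafg, further regulators of Cyp7a1 or Cyp8b1, were not called, with log2 fold changes of -0.28, -0.07, -0.12 and 0.08 and adjusted p of 0.196, 0.802, 0.554 and 0.734.

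Of 14 measured genes of bile acid and sterol transport, 2 rose and 3 fell (35.7% called, against 12.0% of all genes tested, median log2 fold change 0.16). Slc10a2, an apical bile acid uptake carrier, fell to 16.2 ± 5.81 CPM in Li-KO, against 77.3 ± 22.2 CPM in Ctl (edgeR adjusted p = 0.00539), and Atp8b1, a phospholipid flippase of the canalicular membrane, to 88.7 ± 2.58 CPM, against 137 ± 11.8 CPM (adjusted p = 0.0137). The carriers Slco1a1 and Slco1a4 moved apart, at 114 ± 54.7 CPM in Li-KO against 890 ± 266 CPM in Ctl for the first and 440 ± 206 CPM against 99.4 ± 39.6 CPM for the second (adjusted p of 0.00603 and 0.0130). Slc10a2 and Slco1a1 kept their calls in all 6 leave-one-out fits, and Slco1a4 and Atp8b1 in 4 of them, with adjusted p of at most 0.0581 and 0.0701. The Slco1a genes are close paralogs, so their split is uncertain to the extent that fragments match both. Abcg5, a subunit of the sterol exporter of bile, rose to 348 ± 92.5 CPM in Li-KO, against 135 ± 53.6 CPM in Ctl (adjusted p = 0.0257, with a call in 2 of the 6 fits without a library). The bile salt export pump Abcb11, an FXR target, and the uptake carrier Slc10a1 were not called, with log2 fold changes of 0.28 and -0.08 and adjusted p of 0.353 and 0.869.

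**Figure D5:**
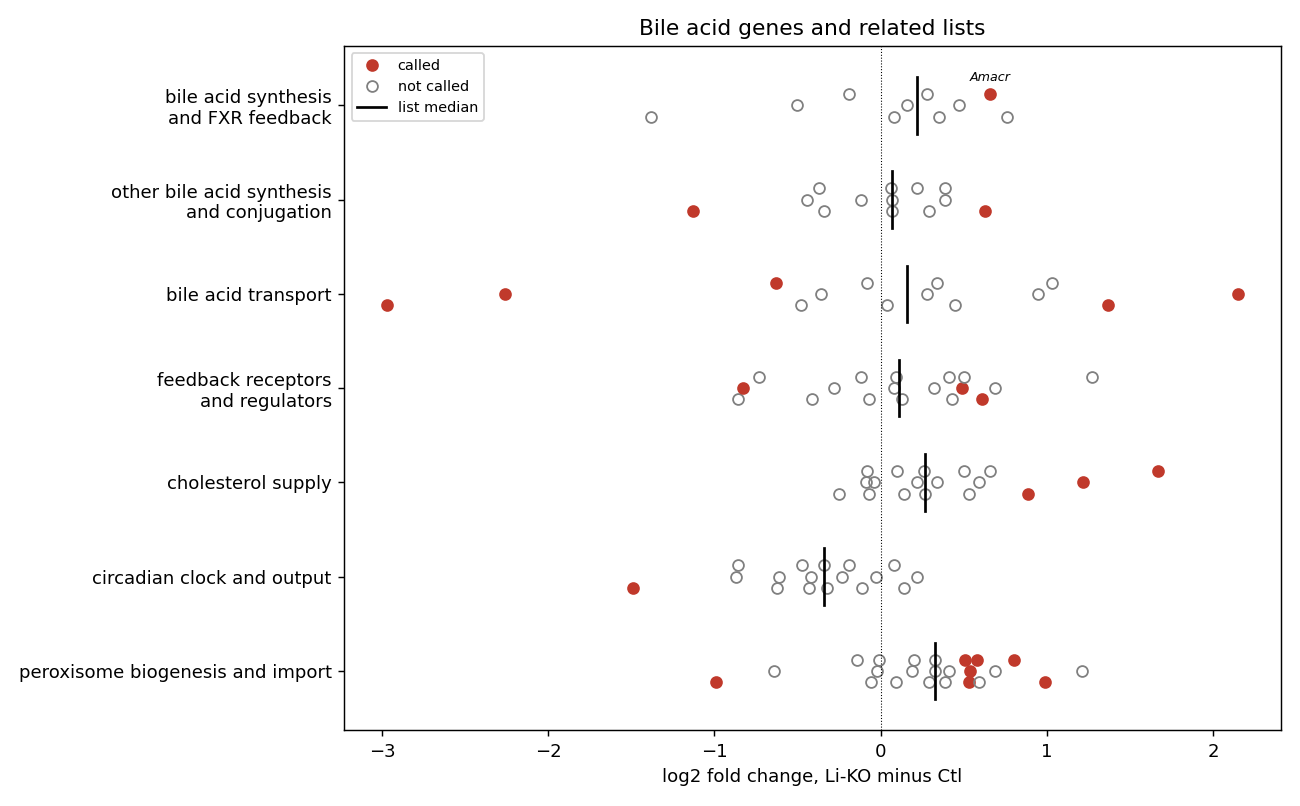
Log2 fold changes, Li-KO minus Ctl (horizontal axis), of the 10 genes (top) and of 6 lists of related genes, with filled red points for called genes, open points for the rest and a black bar at each list's median. The lists hold called genes on both sides of 0, except cholesterol supply, with 3 higher, the circadian list, with Arntl lower, and the 10 genes, with Amacr higher.

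In the list on the supply of cholesterol, the substrate, 3 genes rose and 0 fell of 18 measured. That is 16.7% called, against 12.0% of all genes tested, with a median log2 fold change of 0.27. Not every gene of the list adds to the supply, and Soat2 uses cholesterol, so these counts do not measure it. The unadjusted edgeR p was under 0.05 for 8 higher and 0 lower, where 14.6% of all genes tested were higher and 14.8% lower at that threshold. DESeq2 called 8 higher and 0 lower, where it called 10.3% of all genes higher and 9.97% lower. Soat2, which esterifies cholesterol, rose to 73.6 ± 3.26 CPM in Li-KO, against 31.6 ± 0.847 CPM in Ctl (log2 fold change 1.22 ± 0.11, edgeR adjusted p = 0.000965). Hmgcs1, an enzyme of cholesterol synthesis, rose to 299 ± 69.1 CPM in Li-KO, against 161 ± 39.3 CPM in Ctl (adjusted p = 0.0386). Soat2 kept its call in all 6 fits without a library, and Hmgcs1 in 2 of them.

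Peroxisomes carry out the side chain steps to which Amacr belongs. Of 23 measured genes of peroxisome biogenesis and metabolism 6 rose and 1 fell. That is 30.4% called, against 12.0% of all genes tested, with a median log2 fold change of 0.33. Pex19, a chaperone of peroxisomal membrane proteins, rose to 204, 234 and 219 CPM in Li-KO, against 115, 125 and 137 CPM in Ctl (log2 fold change 0.80 ± 0.12, edgeR adjusted p = 0.00761). The import receptor Pex5, its docking partner Pex14 and the recycling ATPase Pex6 rose by 0.54, 0.58 and 0.53 on the log2 scale (adjusted p of 0.0324, 0.0197 and 0.0305), and Crot, which exports shortened acyl chains, by 0.99 (adjusted p = 0.0304). Pex19 kept its call without any 1 library, while the other named genes lost it in 4 of the 6 fits, and the list had 1 call when Li-KO replicate 1 or Ctl replicate 1 was left out.

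Cyp7a1 is rhythmic over the day in mouse liver, and of 17 measured clock and clock output genes 1 fell and 0 rose (5.88% called, median log2 fold change -0.34). Arntl, a core activator of the clock, was at 4.35, 4.88 and 9.02 CPM in Li-KO, against 23.3, 17.1 and 10.96 CPM in Ctl (edgeR adjusted p = 0.0313). Its call was kept in 2 of the 6 fits without a library. The share called lies below the 12.0% of all genes. The unadjusted p was under 0.05 for 0 higher and 4 lower genes of this list, against 14.6% and 14.8% of all genes, and DESeq2 called 0 higher and 3 lower, against 10.3% and 9.97%. The hour of collection is not in the labels, and its part in the bile acid genes was not tested.

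In whole liver, fewer cells of a type and less RNA per cell cannot be told apart. Of 12 hepatocyte markers 7 were measured, and their summed level was 22760 to 26300 CPM in Li-KO and 21100 to 31120 CPM in Ctl, with Tdo2 called lower. The other 5, Alb, Apob, Cps1, Serpina1a and Trf, were skipped by Cuffdiff and are missing from this sum and from the library totals. The unadjusted edgeR p was under 0.05 for 1 higher hepatocyte marker, Ttr, and 1 lower. The 8 cholangiocyte markers summed to 59.6 to 163 CPM in Li-KO and 45.3 to 77.0 CPM in Ctl, with Sox9 called lower. Of the 7 tested, 2 were higher at an unadjusted edgeR p under 0.05, Epcam and Spp1, and 1 was lower. Spp1 alone was at 144 CPM in Li-KO replicate 0, the library with the highest sum. Markers of Kupffer cells, sinusoidal endothelium, stellate cells and lymphocytes and neutrophils had sums that overlapped between the groups. Of these, 9, 7, 8 and 4 markers were tested, the 4 out of 8 listed for lymphocytes and neutrophils, and edgeR called 0. At an unadjusted edgeR p under 0.05, 1 Kupffer cell marker was lower, 2 stellate cell markers were higher and 2 lower, and 0 endothelial, lymphocyte or neutrophil markers passed. The 2 higher were Col1a2 and Col3a1, both highest in Li-KO replicate 0. In Li-KO replicates 0, 1 and 2, Col1a2 was at 57.4, 27.2 and 21.1 CPM and Col3a1 at 237, 91.8 and 46.7 CPM. In Ctl they were at 18.5 to 23.3 and 40.3 to 63.9 CPM. Of 10 markers of intestinal and gallbladder epithelium, Fabp6, Sis, Cdx2 and Muc2 had 0 fragments in all libraries. Vil1 was called higher on few fragments, 20 to 40 a library in Li-KO and 5 to 6 in Ctl. It kept its call in 3 of the 6 leave-one-out fits. Of the 4 tested, 2 were higher and 0 lower at an unadjusted edgeR p under 0.05. The sums, 136 to 181 CPM in Li-KO and 103 to 153 CPM in Ctl, came mostly from Fabp2 and Apoa4, which liver also expresses. The part of these markers in the values of the 10 genes was not tested.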

How the data were processed

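The submitters' processing notes name STAR, Cufflinks, Cuffdiff and mm10. They state no version, option, annotation or strand setting. Per the labels' protocols, libraries came from a stranded total RNA kit. The deposited raw fragment column holds estimated counts, not normalized (3.29% of values are not whole). The deposited FPKM column holds fragments per length and library size, as Cuffdiff scaled them. The table's WT and KO conditions were taken as Ctl and Li-KO through titles and replicate numbers.

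Estimated counts were rounded. Of 48432 gene IDs, 48051 matched a symbol. The 77 genes that Cuffdiff skipped in some library, listed there at 0, were left out of tests and totals. None of the 10 genes was skipped, and in GENCODE M21 none shares exonic bases with another gene. Genes were filtered with filterByExpr of edgeR 4.0.16 (minimum count 10, minimum total 15), scaled by TMM and tested with the quasi-likelihood test with the group as the only term. The SE was the log2 fold change over the square root of F, and gave the 95% intervals. The method was tested on simulated data. Alternatives used DESeq2 1.42.0 and limma 3.58.1. R 4.3.3, Python 3.11.15, pandas 2.3.3, numpy 2.4.6, scipy 1.17.1 and matplotlib 3.10.9 were used.

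The genes and lists were chosen with earlier results of these data known, so no p-value adjusted within a list is given. All 10 genes were named in full. In each related list up to 6 called genes with the smallest p were named, plus fixed genes whether called or not, and the 5 genes most like Cyp7a1 and Nr0b2 by Pearson r of log2 CPM (prior count 2), without unnamed loci and small RNAs. Stard1 was not found by symbol, and some genes that these rules name are not reported here.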

Additional observations from a re-analysis of the deposited data

How the results depend on the processing

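Under 17 alternatives the sign of the log2 fold change held for 9 of the 10 genes, and Nr1h4 took the other sign at -0.08 and -0.06 without single libraries. For Amacr it was 0.58 to 0.71 without single libraries and 0.60 in limma on log2(FPKM + 0.1) of all genes above 0, where the call ended (adjusted p = 0.0512). Fits without single libraries gave 0.17 to 0.74 for Akr1d1, -0.08 to 0.27 for Nr1h4 and 0.48 to 1.28 for Nr0b2, and they called 0 to 2 of the 10 genes higher. The count of the 10 genes called higher was 0 in limma on FPKM of all genes above 0. Over all genes, DESeq2 called 1595 higher and 1551 lower, limma on FPKM of all genes above 0 called 445 and 460, and fits without a library called 198 to 1102 higher and 234 to 1447 lower, where fewer samples were fitted.

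Fits without a library called 1 to 3 other synthesis genes, 2 to 6 transport genes, 0 to 3 regulators, 2 to 6 cholesterol supply genes, 0 to 3 clock genes and 1 to 8 peroxisome genes. DESeq2 called 8 transport, 8 cholesterol supply and 3 clock genes, and 6 cholesterol supply genes were called with no count filter. The 3 limma fits on FPKM each called 1 regulator. Of these, log2(FPKM + 1) and all genes above 0 called 0 clock genes, and all genes above 0 called 2 peroxisome genes. The cause of these shifts was not tested. Without single libraries, Slc10a1 ran from -0.38 to 0.16 and changed sign without Li-KO replicate 0 (0.16) and Ctl replicate 2 (0.02). Hnf4a ran from -0.19 to 0.07 and changed sign without Li-KO replicate 0, and Mafg from -0.03 to 0.18 and changed sign without Li-KO replicate 2.

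Whether the replicate numbers pair the libraries is not settled by these data. Deviations of same-numbered libraries correlated at 0.018, 0.081 and 0.067, and those of different numbers at -0.113 to 0.037. Li-KO replicates 1 and 2 each correlated best with the Ctl library of the same number, and Li-KO replicate 0 with Ctl replicate 1 (0.028). With the replicate block, 956 genes were higher and 1015 lower, Amacr had a log2 fold change of 0.66 (adjusted p = 0.0323), 6 cholesterol supply genes and 0 clock genes were called, and the calls of the 10 genes were the same. The lowest count of any of the 10 genes in a library was 439 fragments, and with 3 libraries a group the 95% interval for Cyp7b1 ran from -2.79 to 0.02.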

Other observations

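Cyp7b1 is male-biased in mouse liver, and 3 other genes with a known sex bias there, chosen after their values were seen, are set beside it. In the order of replicates 0, 1 and 2, the male-biased hydroxylase Cyp4a12a was at 66.8, 31.9 and 2.38 CPM in Li-KO, against 191, 330 and 362 CPM in Ctl. The male-biased Hsd3b5 was at 11.5, 14.9 and 2.02 CPM in Li-KO, against 37.1, 121 and 181 CPM in Ctl. The female-biased Cyp2b9 was at 0.935, 15.03 and 229 CPM in Li-KO, against 0.288, 0.404 and 1.86 CPM in Ctl. Li-KO replicate 2, the lowest library in Cyp7b1, was also the lowest in Cyp4a12a and Hsd3b5 and the highest in Cyp2b9, and Ddx3y was present in it. This order was not general, as Slco1a1 was at 51.1, 152 and 139 CPM in Li-KO, lowest in replicate 0. By edgeR, Cyp4a12a was not called (adjusted p = 0.0535) and Hsd3b5 was lower in Li-KO (adjusted p = 0.0229). Cyp2b9 was called higher (adjusted p = 0.0459), but its groups overlapped and it kept its call in 1 of the 6 leave-one-out fits. These values were not tested against each other.

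Cyp39a1, the hydroxylase of another oxysterol, was chosen after its values were seen. In the same order of replicates it was at 21.6, 46.0 and 122 CPM in Li-KO, against 86.1, 40.0 and 36.5 CPM in Ctl. Within each group its libraries ranked in the reverse of Cyp7b1, and it was not called (edgeR adjusted p = 0.838).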
